A study of Mus musculus with 2 samples.

Results

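The genes described here encode molecular chaperones: the heat shock protein families HSP70, HSP110, HSP90 and small HSP, the mitochondrial chaperonin pair, the DNAJ co-chaperones, and the subunits of the cytosolic chaperonin TRiC. Members were chosen by gene name, and each had to carry at least 1 transcript of the protein_coding class in GENCODE M21. The rule took 81 of 21901 genes with such a transcript. The name rule itself uses no measured value.

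RNA with polyA tails was sequenced as paired ends from G1E-ER4, an immortalised mouse erythroid line. It is 1 clone of cells without a working Gata1 gene, to which GATA1, the master transcription factor of red cell formation, was returned as a fusion with an estrogen receptor domain. Estradiol switches that fusion on and starts red cell maturation. The series formed 1 group of 2 libraries, replicates 1 and 2, both from cells of this genotype kept in 17beta-estradiol at 10 nM, with a duration of 24 h. No untreated or parental cells are analysed here, so what follows describes levels after treatment, with no comparison between conditions and no p-value. The libraries carry the same biosample record, so the differences between them may be technical, and every SD below is a spread between these 2 libraries. Since RNA was taken from the whole culture, fewer cells of a type and less RNA per cell cannot be told apart.

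Chaperones bind unfolded or half-made proteins and help them fold, assemble, cross membranes or be degraded. HSP70 proteins bind short hydrophobic stretches in a cycle driven by ATP, DNAJ proteins bring them clients and trigger ATP hydrolysis, and HSP110 proteins exchange the ADP that is left. HSP90 finishes signalling proteins such as kinases and steroid receptors, and chaperonins fold proteins inside a closed chamber, actin and tubulin being classic clients of TRiC. Human red cell precursors are known to need HSP70 in the nucleus, where it shields GATA1 from a caspase.

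Replicate 1 held 71485617 expected counts and replicate 2 held 14121747, so depth differed 5.06-fold. A count of 3, used as the floor for genes near 0, equals 0.0420 CPM in replicate 1 and 0.212 CPM in replicate 2. All 8 erythroid marker genes examined reached 1 TPM in each library. Gata1 is 1 of these 8, and the cells carry an introduced GATA1 fusion, so its detection is no sign of cell type. None of the 5 mast cell, 6 granulocyte and monocyte, 5 lymphoid and 4 stromal markers reached 1 TPM in either library. Of 5 megakaryocyte markers 3 reached that level, at a summed 21.5 and 35.3 TPM over the list, while Pf4 and Gp6 were listed at 0. TPM and CPM are both scaled to a fixed total per library, and TPM also divides a gene's counts by its effective length, while CPM does not.

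The chaperone genes took 301301 counts in replicate 1, or 0.421% of the library, with a 95% Wilson interval of 0.420% to 0.423%. In replicate 2 they took 56553 counts, or 0.400%, with an interval of 0.397% to 0.404%. Intervals and floors cover counting error only. As a share of TPM the chaperones held 0.328% and 0.387%, with a mean of 0.357% ± 0.0421 (SD, n = 2). In the table made from reads, the authors' second quantification, the share of TPM was 0.302% and 0.127%, so the closeness of the 2 libraries did not hold there.

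Of 81 chaperone genes, 51 (63.0%) were detected, meaning at 1 TPM or more in both replicates, against 33.1% of 22028 protein-coding genes. Another 5 reached 1 TPM in replicate 1 only, and 25 reached it in neither. The 3 HSP110 genes and both mitochondrial chaperonin genes were detected, as were 7 of 9 genes with TRiC subunit names and 3 of 4 DNAJA genes. Among DNAJC genes 20 of 28 were detected, among DNAJB genes 8 of 13, among HSP70 genes 5 of 11, and among small HSP genes 1 of 8. Hspa8, Dnajb6 and Cct4 were the 3 members with at least 100 TPM in each library. The median of the mean levels was 21.2 TPM over the 51 detected members.

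**Figure D1:**
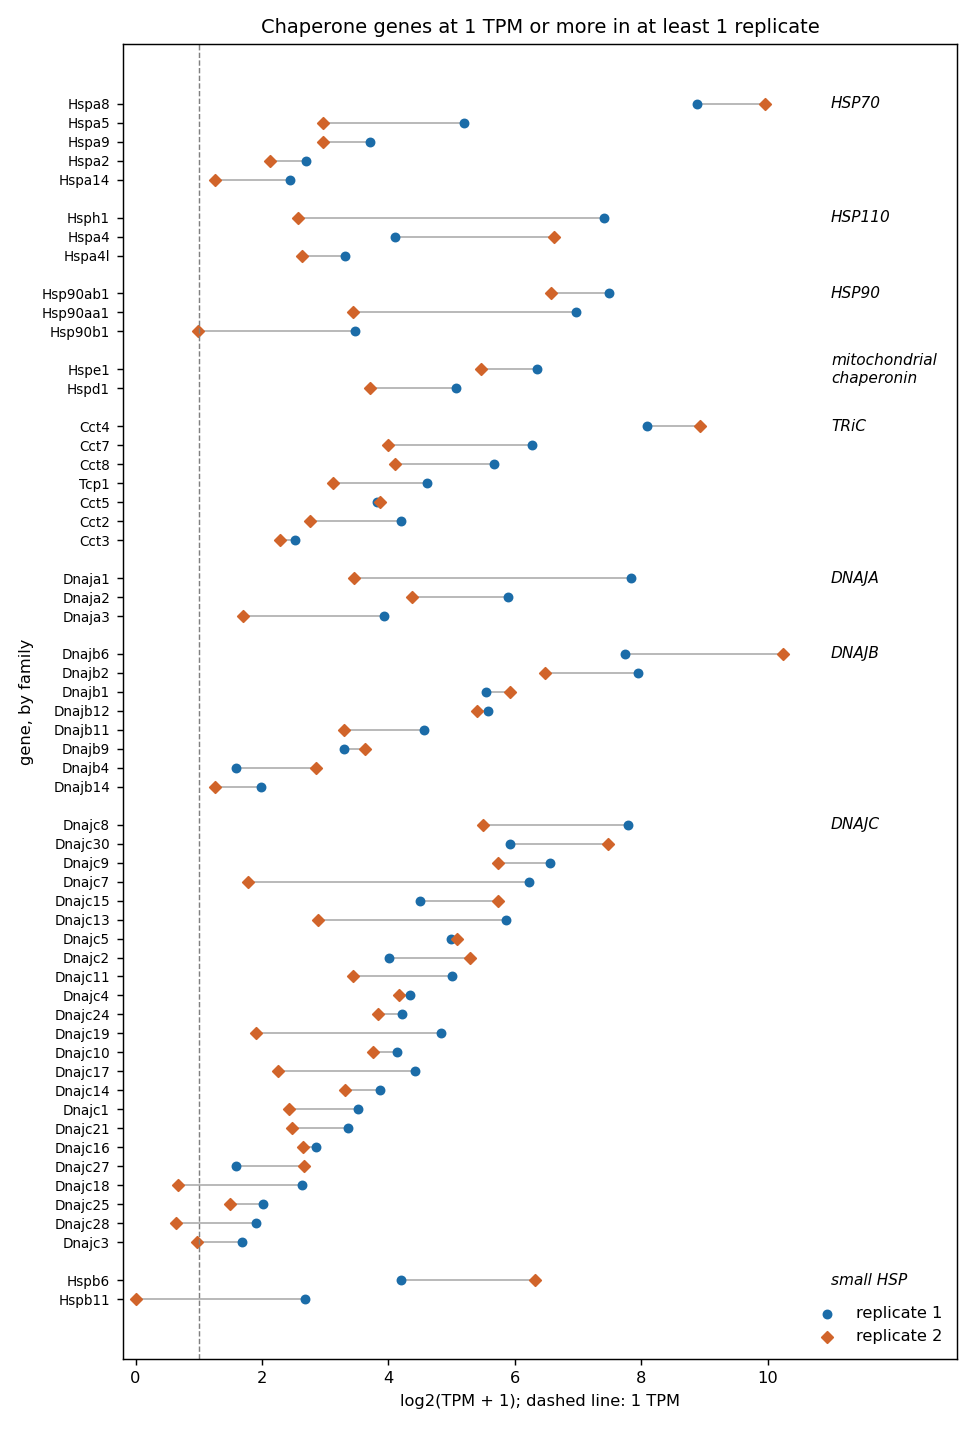
Levels of the chaperone genes at 1 TPM or more in at least 1 replicate, as log2(TPM + 1), ordered by family and then by mean TPM, with a circle for replicate 1, a diamond for replicate 2 and a grey line joining them. Hspa8, Dnajb6 and Cct4 are highest in replicate 2, and Hsph1, Dnaja1, Hsp90aa1 and Dnajc7 have long lines that run to low values in replicate 2.

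In the HSP70 family 1 gene held most of the RNA. Hspa8, on chr9:40800984-40810087 of mm10, encodes the constitutive cytosolic HSC70, which also strips clathrin from vesicles, and was at 471 and 996 TPM in replicates 1 and 2, with a mean of 734 ± 371 TPM (SD, n = 2). It ranked 237th among protein-coding genes in replicate 1 and 130th in replicate 2. Hspa8 held 84.9% and 89.0% of the summed TPM of all Hspa-named genes, Hspa4 and Hspa4l included, a mean of 87.0% ± 2.93 (SD, n = 2). A gene that makes up most of a sum can shift that share only a little, so the share says nothing on how steady the level was.

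The organelle members of the family were lower. Hspa5, the HSP70 of the endoplasmic reticulum known as BiP, was at 35.6 and 6.82 TPM. Hspa9, the mitochondrial HSP70 mortalin, was at 12.0 and 6.82 TPM. Both were below Hspa8 in each replicate. Hspa2, best known for its role in spermatogenesis, was at 5.47 and 3.35 TPM, and Hspa14, which sits on ribosomes, was at 4.46 and 1.39 TPM.

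The heat-inducible HSP70 genes were near 0. Hspa1b had 0.13 and 0.70 TPM, from 24.9 and 23 expected counts, and its near-identical neighbour Hspa1a had 0.02 and 0 TPM, from 3.08 and 0 counts. Reads of that pair cannot be split with certainty, so the 2 values are best read as a sum. Hspa1l, a testis gene of the same cluster, had 0.01 and 0.10 TPM. Hspa12a, Hspa12b and Hspa13 had counts and stayed under 1 TPM in both replicates.

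The HSP110 genes encode the nucleotide exchange factors of HSP70, and their order in TPM turned round between the replicates. Hsph1, which encodes HSP105, was at 169 and 4.94 TPM, and Hspa4 at 16.25 and 97.7 TPM. The mean of Hsph1 was 86.8 ± 116 TPM and that of Hspa4 57.0 ± 57.6 TPM (SD, n = 2 each), so the SDs exceeded the means and neither gene can be called the higher. On the CPM scale, without length, Hsph1 was at 65.3 and 9.91 and Hspa4 at 72.4 and 302. Hspa4l, a relative of both, was at 8.95 and 5.22 TPM.

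In the main table the 3 genes named Hsp90 were lower in replicate 2, in TPM, in CPM and under the scalings TMM, DESeq2 size factors and all genes centred. Hsp90ab1 encodes the constitutive cytosolic form and was at 178 and 94.1 TPM, with a mean of 136 ± 59.4 TPM (SD, n = 2). Hsp90aa1, the inducible cytosolic form, was at 124 and 9.89 TPM. Hsp90ab1 thus held 59.0% and 90.5% of the cytosolic pair, 74.8% ± 22.2 (SD, n = 2). In the table made from reads the share was 39.6% and 69.7%, so Hsp90aa1 was the higher gene there in replicate 1. When only transcripts of the protein_coding class were summed, a setting chosen after seeing the data, the share was 89.4% and 73.8%, so the order of the replicates turned. Hsp90b1, the HSP90 of the endoplasmic reticulum known as GRP94, was at 10.1 and 0.99 TPM and so reached 1 TPM in replicate 1 only. It had 33.1 expected counts in replicate 2. The table made from reads gave it 11.9 and 3.98 TPM. Rescaled over nuclear protein-coding genes, that table gave 16.1 and 16.7 TPM, so Hsp90b1 was not lower in replicate 2 there.

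The mitochondrial chaperonin is a chamber of HSP60, from Hspd1, closed by a lid of HSP10, from Hspe1. Hspe1 was at 80.3 and 43.2 TPM, and Hspd1 at 32.7 and 12.0 TPM, so both were lower in replicate 2, also under those scalings. Hspe1 over Hspd1 was 2.45 and 3.59 on the TPM scale. On the CPM scale the same ratio was 0.843 and 1.10, close to parity, the effective length of Hspd1 being the longer. The start sites of the 2 genes face away from each other on chromosome 1, and their first exons overlap on opposite strands in the M21 annotation.

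Heat shock factors bind adjacent inverted repeats of the unit GAA. Promoters from RefSeq on GRCm38.p6 were found for 66 of the 81 genes. A run of 3 adjacent units, GAANNTTCNNGAA or TTCNNGAANNTTC, occurred in the 250 bases before the start of 3 members (4.55%), Hspe1, Hspd1 and Dnajb6, against 139 of 27025 genes (0.514%). Each form is the other's reverse complement, so both strands were read. A run of 2 units, GAANNTTC or TTCNNGAA, which every 3-unit run also contains, occurred in 17 members (25.8%), against 14.5% of all genes. Hspe1 and Hspd1 share the stretch that matches, which makes 2 separate places and not 3. The windows below are shown because they hold the longest runs among the detected members, and, for contrast, a shorter run before each of 2 classic heat shock genes that were undetected here. Each is 30 bases of the strand of its gene, with the adjacent units in capitals. They lie at chr1:55088053-55088082 on the plus strand for Hspe1, chr5:29735843-29735872 on the plus strand for Dnajb6, chr5:135887791-135887820 on the plus strand for Hspb1 and chr17:34959324-34959353 on the minus strand for Hspa1b.
Hspe1: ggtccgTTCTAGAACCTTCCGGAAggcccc
Dnajb6: cagctccgaGAATCTTCCGGAAcgctagac
Hspb1: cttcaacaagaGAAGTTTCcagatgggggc
Hspa1b: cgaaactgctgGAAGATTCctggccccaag
The Hspe1 window holds 4 units, the Dnajb6 window 3, and the Hspb1 and Hspa1b windows 2 each. A match to these letters is a description of the sequence, and binding was not measured. Only exact matches were counted, so units that differ by a letter would be missed. Of the 4 genes, Hspe1 and Dnajb6 were detected in both replicates, Hspa1b stayed under 1 TPM, and Hspb1 had no counts. The windows were picked knowing these levels and show no link between run length and level. Members with a run of 2 units only included detected genes, such as Cct2, Dnaja1 and Hsph1, and undetected ones, such as Dnaja4 and Hspb3.

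TRiC is a double ring in which 8 different subunits, from Tcp1, Cct2, Cct3, Cct4, Cct5, Cct6a, Cct7 and Cct8, are present in equal number. Their RNAs were far from equal. Cct4, on chr11:22990519-23003780, was highest in both replicates at 272 and 489 TPM, and Cct3 lowest at 4.75 and 3.89 TPM. The highest over the lowest subunit was 57.3-fold and 126-fold, a mean of 91.4 ± 48.3 (SD, n = 2). Between them lay Cct7 at 75.9 and 14.95 TPM, Cct8 at 49.8 and 16.2 TPM, and Tcp1 at 23.4 and 7.73 TPM. Cct2 was at 17.3 and 5.76 TPM, and Cct5 at 13.2 and 13.6 TPM. Cct6a has no transcript of the protein_coding class in M21 and is therefore outside the 81 genes. It was at 43.1 and 9.66 TPM in the gene table. Cct6a, Tcp1, Cct2 and Cct3 kept this order in both replicates, while Cct7 and Cct8 changed places and Cct5 lay below Cct2 in replicate 1 and above Cct6a in replicate 2. Below Cct4, no neighbours in the order of means differed by more than the larger of their SDs.

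The height of Cct4 rested on short transcript models. Cct4-205, a model of 581 bases of the nonsense-mediated decay class, was assigned 177 and 384 TPM, and Cct4-203, of 465 bases and the same class, 89.7 and 93.8 TPM. The long coding model Cct4-204, of 2484 bases, had 2.91 and 3.21 TPM. Summed over protein_coding transcripts alone, the fold range of the 7 subunits that have them was 20.5 and 7.03. In the table made from reads, over all transcripts, the range of the 8 subunits was 40.3-fold and 44.2-fold. Cct4 was again the highest there, while Cct3 was the lowest in replicate 1 only. In replicate 2 the lowest in that table was Cct2 at 3.08 TPM, with Cct3 at 7.30 TPM. The 2 remaining genes with TRiC names were at or near 0: Cct6b, a testis form of Cct6a, had 0.41 and 0 TPM, and Cct8l1 had no counts.

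DNAJ proteins fall into classes A, B and C by their domains, classes A and B being general partners of HSP70 and class C holding specialised proteins. In class A all 3 detected genes were lower in replicate 2, under each of the scalings above too. Dnaja1, a cytosolic partner of HSC70 in protein folding and import, was at 229 and 9.96 TPM, with a mean of 119 ± 155 TPM (SD, n = 2). Dnaja2, a relative with similar function, was at 58.3 and 19.8 TPM, and Dnaja3, which works in mitochondria, at 14.3 and 2.24 TPM. Dnaja4 had no counts.

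Class B was led, by mean level, by Dnajb6, which keeps aggregation-prone proteins in solution. It was at 214 and 1214 TPM, a mean of 714 ± 707 TPM (SD, n = 2), and in TPM it was the highest of all chaperone genes in replicate 2. In CPM Dnajb6 was at 154 and 751, below Hspa8 at 905 and 1278. In replicate 2, 96.6% of the TPM of Dnajb6 lay on Dnajb6-206, a model of 847 bases from inside the gene. Dnajb2, which carries ubiquitin-interacting motifs, was at 246 and 87.6 TPM and was above Dnajb6 in replicate 1. Dnajb1, the HSP40 that is itself a heat shock gene, was at 45.8 and 59.6 TPM, a mean of 52.7 ± 9.73 (SD, n = 2), and 1 of the steadier members. Dnajb12, a membrane protein of the endoplasmic reticulum, was at 46.5 and 41.4 TPM, and Dnajb11, a BiP partner inside that compartment, at 22.5 and 8.88 TPM. The other 3 detected class B genes had means between 2.18 TPM for Dnajb14 and 10.1 TPM for Dnajb9. Dnajb3, Dnajb7, Dnajb8 and Dnajb13 had no counts, and Dnajb5 had 0.24 TPM in each replicate.

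Class C held the most genes. Dnajc8, a component of splicing complexes, was at 221 and 44.2 TPM. Dnajc30, a mitochondrial protein, was at 59.8 and 176 TPM, and its exons overlap Bud23 on the opposite strand. Dnajc9, a histone chaperone that recruits HSP70, was at 93.5 and 52.4 TPM. Dnajc7, an adaptor with tetratricopeptide repeats that joins HSP70 and HSP90, was at 73.8 and 2.43 TPM, and Dnajc15, a protein of the mitochondrial inner membrane, at 21.7 and 52.4 TPM. The order of these 5 changed, with Dnajc8 the highest in replicate 1 and Dnajc30 in replicate 2. The other 15 detected class C genes had means between 2.44 TPM for Dnajc25 and 31.8 TPM for Dnajc13. Dnajc5, the cysteine string protein of secretory vesicles, was among the steadiest as a gene total, at 30.6 and 32.8 TPM. Its protein_coding transcripts were at 13.8 and 3.61 TPM, and Dnajc5-204, of the nonsense-mediated decay class, at 16.7 and 29.2 TPM. Dnajc18, Dnajc28 and Dnajc3 reached 1 TPM in replicate 1 only, at 5.17, 2.74 and 2.23 TPM there and 0.59, 0.55 and 0.97 TPM in replicate 2. Dnajc5b, Dnajc5g and Dnajc22 had no counts, and Dnajc6, the neuronal auxilin, and Dnajc12 had at most 5 counts in a replicate.

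Small HSPs hold unfolded proteins without ATP and are strongest in muscle, heart and lens. Hspb6, known as HSP20, was the member detected in both replicates, at 17.3 and 78.8 TPM. Hspb11, which despite its name is a subunit of the intraflagellar transport machinery, was at 5.39 and 0 TPM, from 205 and 0 counts. Hspb1, Hspb2, Hspb3 and Hspb8 had no counts in either replicate, which allows up to 0.0420 CPM in replicate 1 and 0.212 CPM in replicate 2. Hspb7 and Hspb9 had at most 2 counts.

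Differences between the replicates were counted among genes with a mean of at least 50 expected counts, which 56 members passed. On the TPM scale 37 of them (66.1%) were over 2-fold apart, against 51.0% of 9028 genes. Of the 56, 9 were over 2-fold higher in replicate 2, against 15.5% of all genes, and 28 lower, against 35.4%. The median log2 ratio of replicate 2 over replicate 1 was -0.98 over the members and -0.42 over all genes. On the CPM scale 35 members (62.5%) were over 2-fold apart, 4 higher in replicate 2 and 31 lower, against 51.0% of all genes, 9.67% higher and 41.3% lower. The CPM medians were -1.08 over members and -0.66 over all genes. Scalings moved the whole distribution. With TMM factors 6 of 56 members were higher and 23 lower, against 1396 and 2919 of 9029 genes. With DESeq2 size factors 6 members were higher and 22 lower, against 1556 and 2775 of 9029 genes. The share over 2-fold apart in either direction was then 51.8% of members against 47.8% of all genes with TMM. With DESeq2 it was 50% against 48.0%, so members and all genes were close in that share. Setting the median of all genes to 0 left 10 members higher and 23 lower, against 2194 and 2418 of 9028 genes. In either direction that was 58.9% of members against 51.1% of all genes. Under all of these scalings a smaller share of members than of all genes was higher, and a larger share lower. In the table made from reads 81.4% of members and 77.2% of all genes were over 2-fold apart. The median of the members was below that of all genes in TPM, in CPM and in the table made from reads. TMM, DESeq2 size factors and centring shift members and all genes by the same amount. They therefore cannot change that difference and add nothing on it. The direction of 9 of 55 members with a ratio, Dnajb9, Dnajb12, Dnajc4, Dnajc5, Dnajc10, Dnajc16, Dnajc24, Cct3 and Cct5, depended on the scaling, and each of these was under 2-fold apart in TPM.

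**Figure D2:**
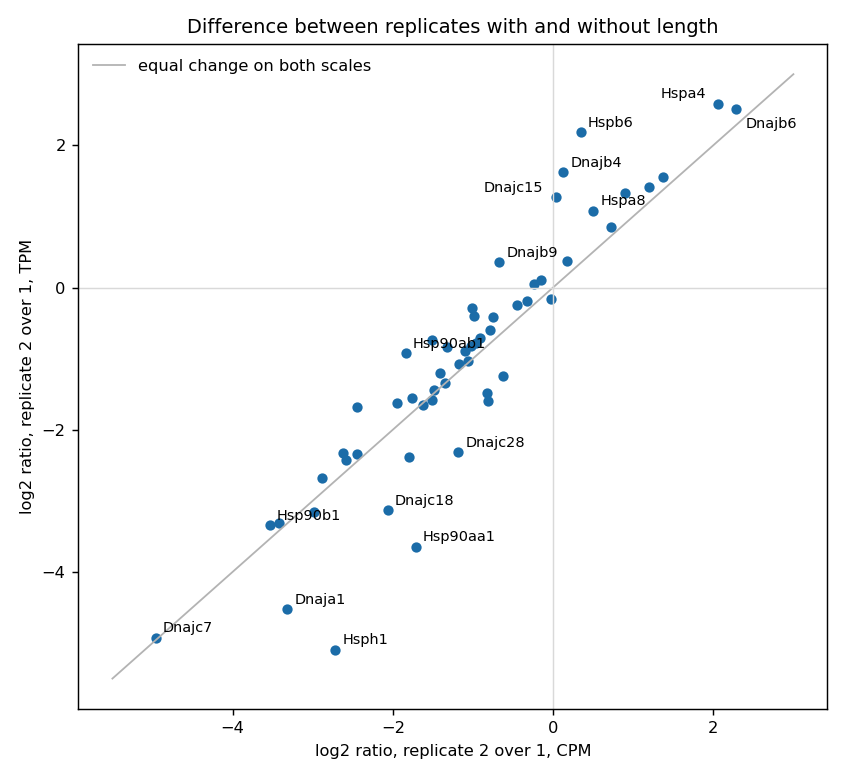
Log2 ratio of replicate 2 over replicate 1 in CPM (x axis) and in TPM (y axis) for the chaperone genes with a mean of at least 50 expected counts and a value above 0 in both replicates, 1 point a gene. Points far from the grey line differ in effective length between the replicates: Hsph1, Dnaja1 and Hsp90aa1 lie below it, and Hspb6, Dnajb4 and Dnajc15 above it, with log2 CPM ratios near 0.

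The members furthest apart with the lower level in replicate 2 were Hsph1, at 34.1-fold in TPM, Dnajc7 at 30.4-fold, Dnaja1 at 22.9-fold, Hsp90aa1 at 12.5-fold, Hsp90b1 at 10.2-fold and Dnajc19, part of the mitochondrial import motor, at 9.97-fold. Dnajc19 was at 27.4 and 2.75 TPM. Hspb11, at 0 in replicate 2, has no ratio and is not among these. On the CPM scale Dnajc7, Hsp90b1 and Dnajc19 were as far apart, at 31.1-fold, 11.6-fold and 10.7-fold. These genes had only 21, 33.1 and 18 expected counts in replicate 2, and TPM and CPM use the same counts. The others were closer in CPM, Hsph1 at 6.59-fold, Dnaja1 at 9.96-fold and Hsp90aa1 at 3.29-fold, all still lower in replicate 2. The table made from reads, in which the median log2 ratio of all genes was -1.69, gave Hsp90b1 the 11.9 and 3.98 TPM above, Dnajc19 21.7 and 4.60 TPM, Hsph1 128 and 16.9 TPM and Dnaja1 183 and 16.2 TPM. These 4 gaps are narrower than in the main table, against a larger shift of all genes, as is that of Dnajc7, at 70.6 and 3.39 TPM. That of Hsp90aa1, at 232 and 8.10 TPM, is wider. Rescaled over nuclear protein-coding genes, that table gave Hsp90b1 16.1 and 16.7 TPM, Dnajc19 29.3 and 19.3 TPM, and Dnajc7 95.3 and 14.2 TPM. Hsph1 was then at 173 and 71.0 TPM, Dnaja1 at 248 and 68.2 TPM, and Hsp90aa1 at 313 and 34.0 TPM. Hsp90b1 was thus not lower in replicate 2 there.

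Higher in replicate 2 were Hspa4, at 6.01-fold in TPM, Dnajb6 at 5.67-fold and Hspb6 at 4.55-fold, then Dnajb4 at 3.08-fold, Dnajc30 at 2.95-fold and Dnajc27, a protein with a small GTPase domain, at 2.67-fold. Levels were 2.02 and 6.23 TPM for Dnajb4, and 2.01 and 5.37 TPM for Dnajc27, both low beside the other 4. In CPM, Hspa4 was 4.17-fold, Dnajb6 4.88-fold, Dnajc30 2.58-fold and Dnajc27 2.30-fold higher. Hspb6 and Dnajb4 were 1.27-fold and 1.09-fold higher in CPM, so most of their TPM difference came with a change in effective length. In the table made from reads Hspa4, Dnajb6 and Dnajb4 were again higher in replicate 2. Hspb6, at 14.0 and 10.5 TPM, Dnajc30, at 42.2 and 29.4 TPM, and Dnajc27, at 1.55 and 0.903 TPM, were lower there as deposited. With that table rescaled over nuclear protein-coding genes, they were higher in replicate 2 as well. Hspb6 was then at 18.9 and 44.2 TPM, Dnajc30 at 56.9 and 123 TPM, and Dnajc27 at 2.09 and 3.79 TPM.

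Effective length is the mean usable length of the transcripts to which a gene's reads were assigned, so it shifts when reads move between models. It differed over 1.5-fold between the replicates in 14 of 56 members (25.0%), against 19.7% of genes. In 9 members it was longer in replicate 2 (8.51% of all genes) and in 5 shorter (11.2%). Hsph1 had 382 and 2293 bases, Dnaja1 1047 and 2797 bases, and Hsp90aa1 637 and 2808 bases. In these genes most of the TPM of replicate 1 lay on a short model that was at or near 0 in replicate 2.

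Hsp90aa1-205, a retained_intron model of 487 bases within the gene, was assigned 108 and 0 TPM, while the coding model Hsp90aa1-202, of 3281 bases, had 13.0 and 8.70 TPM. The coding model thus differed far less than the gene. For Dnaja1 the short model was Dnaja1-206, a processed_transcript of 571 bases, at 173 and 0 TPM, beside 50.4 and 8.32 TPM for the coding Dnaja1-201 of 3376 bases. For Hsph1 it was Hsph1-203, a model of 416 bases near the 5′ end that is itself classed as protein_coding, at 161 and 1.35 TPM, beside 5.27 and 2.03 TPM for the 3054-base Hsph1-209. All 3 long coding models were lower in replicate 2. The table made from reads gave Hsp90aa1-205 199 and 0 TPM, but Dnaja1-206 138 and 10.5 TPM and Hsph1-203 115 and 13.2 TPM, so the near loss of the short model was shared by that quantification for Hsp90aa1 only among the 3.

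In genes higher in replicate 2, other models rose in share. For Hspa4 it was Hspa4-203, a processed_transcript of 3075 bases that shares most exons with the coding Hspa4-201 and was at 0.08 and 60.4 TPM. Hspa4-201 itself was at 15.9 and 37.2 TPM. Hspa8-207, a retained_intron model of 1152 bases, was at 0 and 481 TPM, beside 429 and 510 TPM for the coding Hspa8-202. The coding model of Hspa8 was thus close in the 2 libraries in the main table. The table made from reads gave Hspa8-207 285 and 117 TPM, so the 0 in replicate 1 was not shared by that quantification. There Hspa8-207 was the highest model in both replicates, and protein_coding transcripts held 45.1% and 25.1% of the gene's TPM. Dnajb6-206, a coding model of 847 bases, was at 111 and 1173 TPM. It starts 28787 bases inside the gene and ends 36427 bases before its 3′ end. The long coding Dnajb6-201, of 2918 bases, went the other way, at 11.1 and 0.79 TPM. Hspb6-204, of 350 bases, was at 0 and 65.0 TPM.

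**Figure D3:**
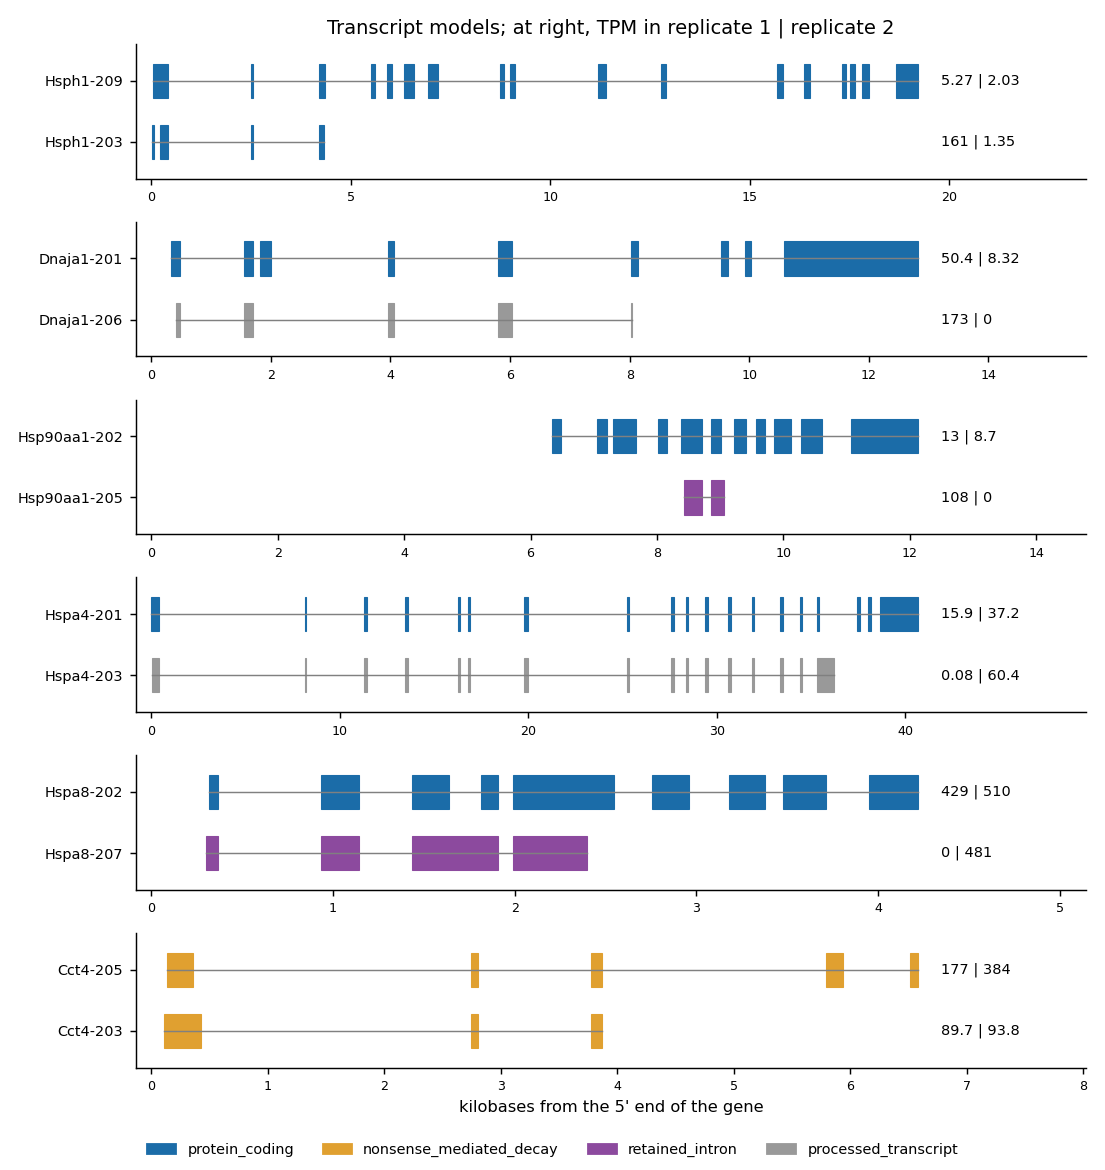
Exons (boxes) and introns (lines) of the transcript models named for Hsph1, Dnaja1, Hsp90aa1, Hspa4, Hspa8 and Cct4, on an axis of kilobases from the 5′ end of each gene, coloured by annotated class, with their TPM in replicate 1 and replicate 2 at the right. The shorter models overlap exons of the longer ones, and several carry TPM mainly in 1 replicate, such as 108 and 0 for Hsp90aa1-205.

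Over the 51 detected members, transcripts of the protein_coding class held 59.6% and 63.0% of TPM, against 69.4% and 67.9% over 7283 detected protein-coding genes with transcripts. The nonsense-mediated decay class held 13.6% and 16.7% of the members' TPM, against 3.10% and 4.69%, and Cct4 is the largest part of it. Retained_intron models held 17.5% and 15.8%, against 19.8% and 15.8%, and processed_transcript models 9.36% and 4.41%, against 7.74% and 11.6%. Counted as reads, which favours long models, the protein_coding class held 82.3% and 73.4% of the members' counts, against 82.4% and 80.3%.

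In 10 of 51 members under 50% of TPM lay on protein_coding transcripts in both replicates, against 21.1% of genes, a share close to that of the members (19.6%). They were Cct4 and 9 DNAJC genes: Dnajc1, Dnajc5, Dnajc7, Dnajc8, Dnajc9, Dnajc10, Dnajc13, Dnajc15 and Dnajc24. Dnajc8-203, a retained_intron model of 743 bases, held 170 of the 221 TPM of Dnajc8 in replicate 1 and 38.8 of 44.2 TPM in replicate 2. Dnajc15-201, of the nonsense-mediated decay class, had 19.0 and 51.9 TPM, or 87.3% and 99.0% of its gene. The transcript with the highest TPM differed between the replicates in 16 members (31.4%), against 33.5% of genes.

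**Figure D4:**
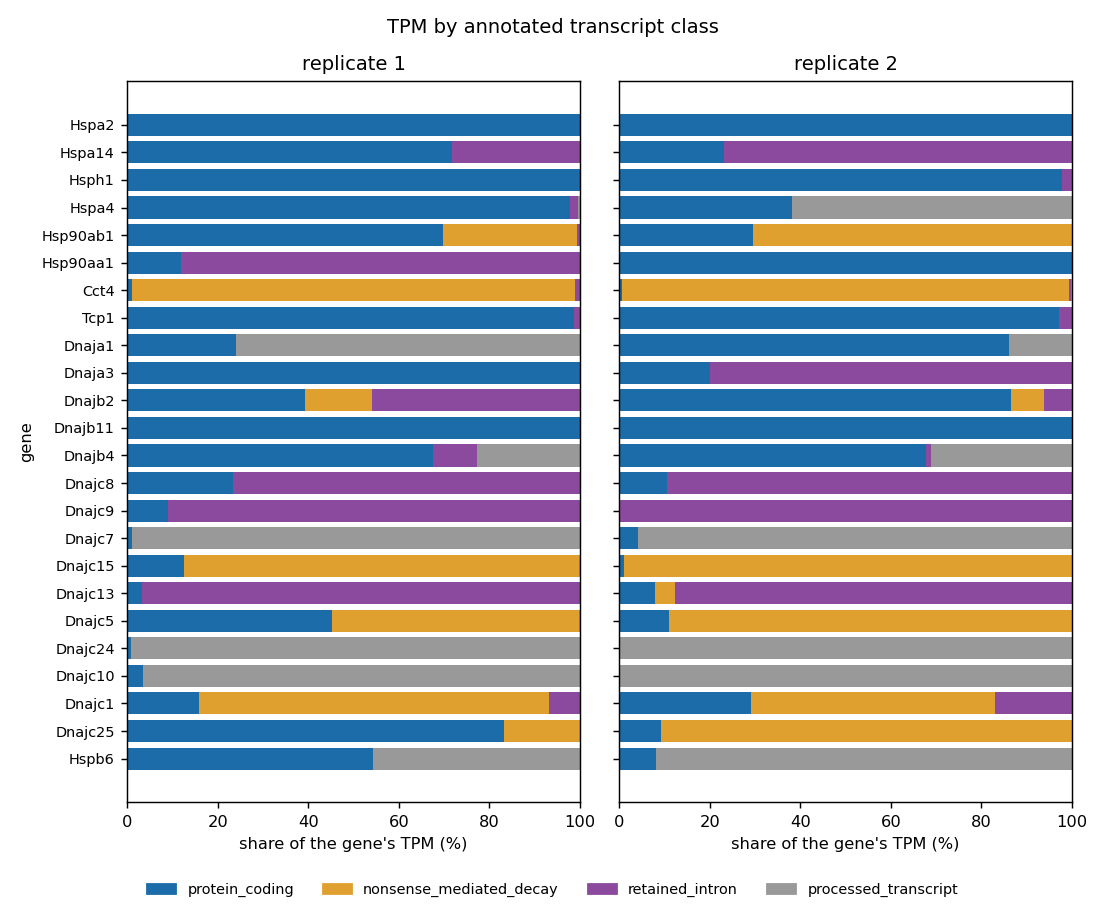
Share of each gene's TPM by annotated transcript class in replicate 1 (left) and replicate 2 (right), for the 24 detected chaperone genes with under 50% on protein_coding transcripts in both replicates or with a different highest transcript in each. Cct4 and Dnajc15 are mostly of the nonsense-mediated decay class in both, while Hsp90aa1, Dnaja1 and Hspa4 change class between replicates.

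Partners of these chaperones were read from lists of pathway genes. Of 6 heat shock regulators 2 were detected: Hsf1, the main heat shock factor, at 78.2 and 103 TPM, and Hsbp1, its binding protein, at 51.5 and 6.69 TPM. Hsf2, a second heat shock factor, was at 0.30 and 0 TPM. Of 14 HSP70 co-factors 12 were detected, led by Bag6 at 533 and 1332 TPM and Bag1 at 476 and 1023 TPM, both nucleotide exchange or sorting factors with a BAG domain. Hspbp1, another exchange factor, was at 128 and 204 TPM. Of 15 HSP90 co-factors 13 were detected, led by the immunophilin-like Fkbp8 at 1428 and 3979 TPM, the immunophilin Fkbp4 at 110.3 and 129 TPM, and Trap1, the mitochondrial HSP90, at 121 and 118 TPM. In TPM, Bag6 and Fkbp8 were above every one of the 81 chaperone genes in both replicates, and Bag1 was slightly above Hspa8. In expected counts, without length, Bag1 was below Hspa8, at 33825 and 12285 against 64713 and 18051. Of 10 TRiC partners 6 were detected. Pfdn1, a subunit of prefoldin, which hands clients to TRiC, was at 376 and 648 TPM, and its fellow subunit Pfdn6 had 212 and 21.8 TPM. Pdcl3, a phosducin-like protein that binds TRiC, had 33.25 and 5.84 TPM, so the highest TRiC partner was higher in replicate 2 and the next pair lower.

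Reads of neighbouring and copied genes bear on some values. Exons of 31 of the 81 genes, and of 22 of the 51 detected, overlap another annotated gene. Examples are Dnaja1 with Smu1, Cct8 with Usp16 and Dnajc7 with Nkiras2, each on the opposite strand, and Hspa8 with small nucleolar RNA genes on its own strand. How far such reads were shared was not tested. The 15 pseudogenes named after members, left out by the rule, summed to 0.04 and 0 TPM.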

How the data were processed

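Polyadenylated RNA from 2 libraries of 1 treated group was analysed. The assembly is mm10 per the labels. No aligner, quantifier or strand setting is given in the sources used here. Genes that overlap may share reads. The deposited expected counts are estimates by the authors of the fragments from each gene or transcript, without normalization. The TPM values are, per the file headers, the authors' length-scaled abundances. The authors' lower and upper interval bounds, deposited as a signal never below 0, and the deposited effective lengths in bases were read too. The main table was that for GENCODE M21, without 26345 spike-in and tRNA entries, and names came from the table made from reads. Transcript classes and gene positions are from the M21 annotation.

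CPM is the expected count over the library's sum. Promoter letters were searched in the RefSeq table. Detection meant 1 TPM in both replicates, and ratios used genes with a mean of at least 50 counts. edgeR (4.0.16) TMM and DESeq2 (1.42.0) served only for scaling, on expected counts rounded to whole numbers, under R 4.3.3. The rest used pandas 2.3.3 and numpy 2.4.6 in Python 3.11.15, scipy 1.17.1 for intervals and matplotlib 3.10.9 for plots. The counting code was tested on simulated data.

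Named with values were the HSP70, HSP110, HSP90, chaperonin and TRiC genes detected, the 5 highest of each DNAJ class and of the small HSPs, the 6 furthest apart in each direction, those detected in 1 replicate, and the 3 highest of each pathway list. Dnajc5 and other genes beyond this were chosen after their values were seen. Members, lists and tests were chosen with earlier results of these data known. Alternatives tried were the table made from reads, the M4 table, other TPM estimates, thresholds, scalings and filters, each replicate alone and, chosen after seeing the data, protein_coding transcripts only.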

Additional observations from a re-analysis of the deposited data

How the results depend on the processing

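With 1 group, no result has a test, so only sizes can be compared. The count of detected members, 51, ran from 37 at a threshold of 5 TPM to 55 at 0.5 TPM, and was 51 without replicate 1 and 56 without replicate 2. Over 2-fold apart were 37 members, and 28 to 48 under the alternatives. The 28, with DESeq2 size factors, are 50% of members against 48.0% of all genes, and the 48, in the table made from reads, 81.4% against 77.2%. The members' share of TPM, 0.357%, was 0.214% in the table made from reads as deposited (0.302% and 0.127%), and 0.328% to 0.387% by replicate. The TRiC fold range, 91.4, was 42.2 in that table and 13.7 on protein_coding transcripts, a setting added after seeing the data, and 57.3 to 126 by replicate. By replicate the Hspa8 share was 84.9% to 89.0% and that of Hsp90ab1 59.0% to 90.5%, and in the table made from reads Hsp90ab1 held 54.7% (39.6% and 69.7%), so it was the lower of its pair in replicate 1. The median log2 ratio of the members, -0.98, stayed below 0 in each alternative run: -0.82 with M4, -1.99 in the table made from reads, -0.94 with TPM over nuclear protein-coding genes, -0.96 with posterior means, -1.08 in CPM, -0.73 with TMM, -0.65 with DESeq2 size factors, -0.56 with all genes centred, -0.85 with log2(TPM + 1) with or without the count filter, and -1.20 on protein_coding transcripts. The causes of these shifts were not tested. No paired analysis was possible because there is 1 group. Replicate 2, with 14121747 counts, limits the low genes: Hsp90b1 and Dnajc3, at 0.99 and 0.97 TPM there, sit at the threshold, and Hsp90b1 passes it in the table made from reads. The split of TPM between overlapping transcript models is an estimate.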

Other observations

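Genes that work beside the organelle chaperones were measured in the same tables. Of 8 mitochondrial proteases and unfoldases 7 were detected. Lonp1, the matrix protease that clears oxidised proteins, was at 136 and 99.6 TPM in replicates 1 and 2, Afg3l2, a membrane protease, at 42.7 and 153 TPM, and Clpp, the proteolytic subunit of the ClpXP protease, at 87.0 and 54.9 TPM. Each was higher than Hspa9 and Hspd1 on the same scale in both replicates.

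Of 10 genes of folding in the endoplasmic reticulum 8 were detected. P4hb, which encodes protein disulfide isomerase, was at 257 and 975 TPM, Pdia3, a disulfide isomerase for glycoproteins, at 141 and 771 TPM, and Sec61b, a subunit of the translocation channel, at 74.1 and 183 TPM. These 3 were higher in replicate 2. Canx at 23.6 and 5.06 TPM, Calr at 89.1 and 82.6 TPM, Ero1l at 10.7 and 3.23 TPM and Pdia6 at 4.86 and 1.33 TPM were lower there, so the list moved in no single direction. The globin chaperone Ahsp was not matched by name and is not analysed here.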
